A study of Mus musculus with 22 samples.

Results

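The 38 genes described here carry the NF-kB signal inside the cell, below the Toll-like receptors (TLRs). They were chosen by name: 5 NF-kB subunits, 6 proteins of the IkB family, 6 IkB kinases and their partners, 5 genes of the TAK1 complex with MAP3K8, 11 receptor-proximal adaptors and kinases, and 5 negative feedback genes. All 38 were listed among the 25471 genes of the tables, and all 38 were among the 18793 genes that passed the count filter. RNA came from the middle segment of the ulna, a forearm bone, of 7 wildtype mice (WT) and 4 mice with a conditional knockout of Tlr4 (CKO). In every mouse the right limb had been loaded mechanically and the left limb had not, which gives 22 libraries in 4 groups: WT non-loaded and WT loaded (n = 7 each), CKO non-loaded and CKO loaded (n = 4 each). The study asked about TLR4 in bone-forming cells; the driver and the deleted exon, the age of the mice, the loading regime and the harvest time were not stated and are not used here. Each value is an average over all cells of the bone piece, of which osteoblasts are one type.

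TLR4 senses bacterial lipopolysaccharide and products of damaged tissue. Its adaptors recruit IRAK kinases and the ubiquitin ligase TRAF6, which activate TAK1 and then the IkB kinases. These mark IkB proteins for breakdown, NF-kB dimers enter the nucleus, and some of the genes they switch on, among them Nfkbia, Nfkbie and Tnfaip3, encode inhibitors that end the signal. Signalling through most of these proteins works by phosphorylation, ubiquitin chains and breakdown, none of which RNA counts measure.

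Several members are known NF-kB targets themselves, so their upstream sequences are shown first. The NF-kB decamer consensus was searched by its letters, on both strands, in the 250 bases before each RefSeq transcript start (GRCm38.p6). An entry existed for 31 members, and 12 of them (38.7%) held a match in at least 1 promoter, against 2225 of 27025 genes (8.23%) with an entry. The 12 were Nfkb2, Rel, Nfkbia, Nfkbie, Nfkbid, Tank, Map3k7, Irak1, Traf3, Tnfaip3, Tnip1 and Cyld. Ikbkb, Ripk2, Nfkb1, Relb, Map3k8, Nfkbiz and Tab1 were not searched. The stretches below are those of 3 inhibitor genes and 1 subunit gene to which the results return, 5′ to 3′ on the gene's strand, with the matches in capitals.
Nfkbia, chr12:55492648-55492897, minus strand: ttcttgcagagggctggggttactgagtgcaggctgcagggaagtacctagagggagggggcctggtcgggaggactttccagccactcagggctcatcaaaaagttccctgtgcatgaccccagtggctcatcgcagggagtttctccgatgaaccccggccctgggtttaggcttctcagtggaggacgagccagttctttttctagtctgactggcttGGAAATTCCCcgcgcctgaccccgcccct
Tnfaip3, chr10:19015411-19015547, minus strand: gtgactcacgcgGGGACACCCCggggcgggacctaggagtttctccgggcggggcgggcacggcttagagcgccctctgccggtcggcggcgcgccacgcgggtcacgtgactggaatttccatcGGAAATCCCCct
Nfkb2, chr19:46304693-46304713, plus strand: gtcacGGGAATTCCCCccctc
Nfkb2, chr19:46304721-46304736, plus strand: cgaaaGGGGCTTTCCc
Nfkbie, chr17:45555450-45555699, plus strand: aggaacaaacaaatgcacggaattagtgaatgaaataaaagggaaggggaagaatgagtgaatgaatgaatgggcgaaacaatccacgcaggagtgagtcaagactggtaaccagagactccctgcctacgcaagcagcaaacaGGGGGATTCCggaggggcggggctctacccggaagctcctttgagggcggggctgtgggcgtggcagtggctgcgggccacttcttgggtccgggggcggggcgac
The match of Nfkbia began 29 bases before the transcript start and that of Nfkbie 106 bases before it. Tnfaip3 held 2 matches, 125 and 12 bases before the start used. Only 137 bases are shown, since annotated exons cover 110 of the 250, and the stretch lies inside the annotated gene. Nfkb2 held 3, at 39, 38 and 11 bases, of which the first 2 overlap; only the matches with up to 5 flanking bases are shown, since the whole window lies in an exon of a longer annotated transcript. A match is a run of letters and shows no binding.

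The members were present in every library. On a scale of CPM (library-scaled counts) per kilobase of merged exon length, Nfkbia, the IkB alpha gene, had the highest level in WT non-loaded ulnae, 39.9 ± 3.54 (SD, n = 7). It was followed by Tab2, an adaptor of TAK1, at 18.0 ± 2.15, by Irak1 at 12.8 ± 0.429, by Rela, the main transactivating subunit, at 11.1 ± 1.09, and by Map3k7, which encodes TAK1 itself, at 9.69 ± 0.58. At the low end stood Ripk2 at 2.01 ± 0.249, Ikbke at 1.73 ± 0.547 and Traf1 at 0.631 ± 0.148. Of the 37 pairs of neighbours in this order only 3 were separated in all 7 libraries: Nfkbia above Tab2, Tab2 above Irak1, and Ikbke above Traf1. The other neighbours overlapped, so the order in between is loose. Merged exon length counts every annotated exon and understates genes with long alternative exons, such as Ikbkb.

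**Figure D1:**
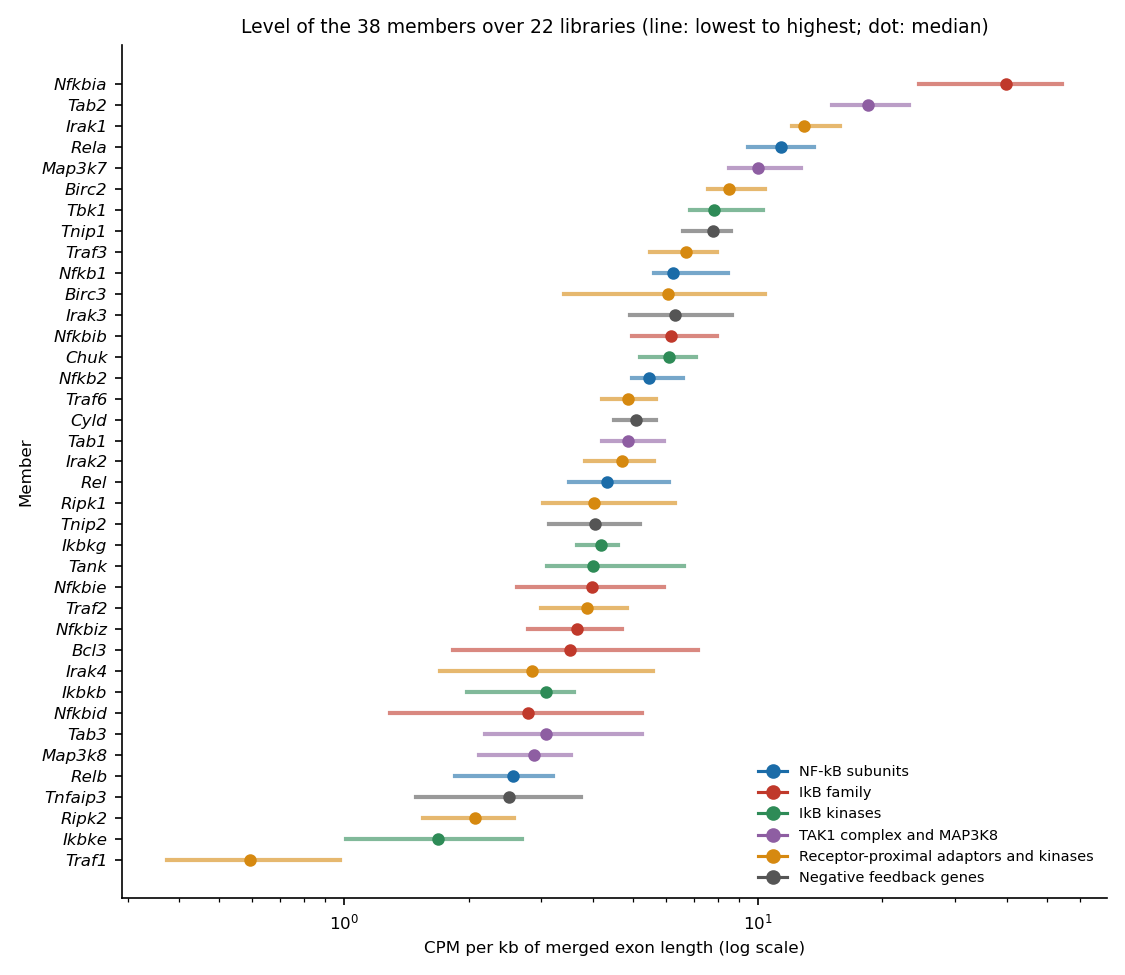
Level of each of the 38 members in CPM per kb of merged exon length (log axis), with a dot at the median and a line from the lowest to the highest of the 22 libraries, coloured by role. Nfkbia stands highest and Traf1 lowest, and the lines of most neighbours overlap.

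Most members varied little between the 22 bones. The SD of log2 CPM over all libraries had a median of 0.18 among the members, from 0.09 for Ikbkg, the scaffold subunit of the IkB kinase, to 0.48 for Bcl3, an atypical nuclear IkB protein. Over 12305 tested genes with a mean of at least 4 CPM, not matched to the members by level, the median was 0.25. Nfkbid, another nuclear IkB gene, followed Bcl3 with 0.46, then Irak4, the first kinase of the IRAK chain, with 0.39, and Ikbke with 0.36. Irak1, Cyld and Tnip1 stood beside Ikbkg at the steady end, each with 0.10. The non-loaded bone of CKO mouse 691 was the highest of all 22 for 12 members (Bcl3, Birc3, Chuk, Irak1, Map3k8, Nfkb1, Nfkbie, Rela, Ripk1, Tab3, Tnfaip3 and Traf6), and that of WT mouse 699 for 7 (Ikbke, Irak3, Irak4, Nfkbid, Rel, Tank and Tbk1). The loaded bone of CKO mouse 698 was the lowest of 22 for Birc3, Ikbkb, Irak4, Nfkb1, Nfkbia, Nfkbid, Nfkbie, Nfkbiz, Ripk1, Tnfaip3 and Traf1. Reads of Ikbkg and Irak4 may include some from an antisense gene.

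Libraries held 21999891 to 42833729 counts. Tlr4 lay at 32.5 ± 4.89 (WT) and 30.1 ± 3.43 CPM (CKO) without loading, and at 33.4 ± 4.82 and 29.2 ± 3.16 with it; counts over the whole gene do not check a deletion in one cell type. The libraries labelled WT loaded 686 and CKO loaded 688 stood apart in Ltbp2, a microfibril gene, with 380 CPM, above the highest CKO library (344), and 38.4 CPM, inside the range of the non-loaded WT bones (26.5 to 73.5). Each went against its genotype label in this gene, so the counts of members with an unadjusted p under 0.05 are also given without both mice. Counts by sign, interval, range or mouse keep both. Markers of osteoblasts and osteocytes were detected in all libraries, with sums of at least 2740 and 545 CPM. Skeletal muscle markers summed to 2.17% to 17.3% of counts, and markers of macrophages, neutrophils, B cells, T and NK cells, red cells and osteoclasts were above 0 in every group.

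In non-loaded bone, the levels of the NF-kB genes were close in the 2 genotypes. No member passed the threshold (0 of 38; lowest edgeR adjusted p = 0.976), and neither did any other gene (0% of 18793). 1 member, Tnip2, had an unadjusted p under 0.05, against 3.04% of all genes. The count was 5 (13.2%) without WT mouse 699, against 15.8% of all genes, 3 without CKO mouse 688, against 7.32%, and 0 without CKO mouse 693, against 2.7%. Without mice 686 and 688 it was 1 again, Tab3 (0.48), against 4.91%. 28 members lay above 0 in CKO and 10 below, with a median log2 fold change of 0.04, where 49.3% of all genes lay above. The 95% confidence interval of the fold change lay inside 2-fold in either direction for 37 of 38 members, all but Bcl3, and inside 1.5-fold for 34.

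Tnip2 encodes a protein that binds the ubiquitin editor made by Tnfaip3 and helps it to limit the signal. It lay at 9.50, 10.4, 8.40 and 9.21 CPM in CKO mice 688, 691, 693 and 698, and from 9.43 to 13.8 CPM (median 11.4) in the 7 WT mice. Mice 693 and 698 thus lay below the WT range, and 688 and 691 inside its lower part. The log2 fold change was -0.29 ± 0.11 (SE; 95% interval -0.51 to -0.07, edgeR adjusted p = 0.976).

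Tab3, an adaptor of TAK1 beside Tab2, and Bcl3 had the next smallest p-values. Tab3 lay at 17.2, 34.9, 22.8 and 23.7 CPM in the CKO mice, in the same order, and from 14.5 to 30.6 (median 17.7) in WT (0.37 ± 0.19, 95% interval -0.03 to 0.77). Bcl3 lay at 6.59, 17.8, 12.9 and 8.50 CPM against 4.53 to 14.6 (median 7.01; 0.48 ± 0.28, -0.11 to 1.07). In both genes mouse 691 gave the highest CKO value and mouse 699 the highest WT value. Without mouse 691 the balance of the members turned, with 14 of 38 above 0. Osteoblast and osteocyte markers lay below 0 in this contrast (9 of 9, median -0.62, and 7 of 7, median -0.61), as did 7 of 8 osteoclast markers (-0.23). Above 0 lay red cell (9 of 10, 0.48), B cell (8 of 9, 0.31), T and NK cell (10 of 10, 0.20), macrophage (9 of 10, 0.19) and neutrophil markers (10 of 10, 0.14). Mitochondrial transcripts lay above 0 too (9 of 9, median 0.29). 2 osteoblast, 4 osteocyte and 1 B cell markers had an unadjusted p under 0.05, against 3.04% of all genes. 0 genes of these lists passed the threshold.

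The core of the pathway overlapped between genotypes in non-loaded bone. Nfkb1, the precursor gene of a DNA-binding subunit, lay at 71.0, 102, 72.5 and 74.6 CPM in CKO and from 69.3 to 99.4 (median 74.1) in WT, a log2 fold change of 0.05 ± 0.11. Rela lay at 31.2, 42.0, 35.7 and 31.8 CPM against 31.2 to 41.2 (median 33.0; 0.04 ± 0.10). Nfkbia spread more widely in CKO, at 48.0, 79.0, 87.5 and 49.2 CPM, than in WT, from 56.6 to 72.0 (median 65.3; 0.04 ± 0.17). Tnfaip3 lay at 13.1, 27.0, 19.1 and 17.7 CPM against 15.1 to 23.7 (median 16.9; 0.10 ± 0.17). Each of these 4 fold changes was smaller than its SE.

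By role, 4 of 5 subunits, 5 of 6 IkB genes, 3 of 6 IkB kinases and partners, 4 of 5 TAK1 genes, 9 of 11 adaptors and 3 of 5 feedback genes lay above 0. Their medians ran from 0.02 for the IkB kinases to 0.10 for the TAK1 group. All 12 members with a decamer match lay above 0 (median 0.06), as did 13 of the 19 members searched without one (median 0.05).

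**Figure D2:**
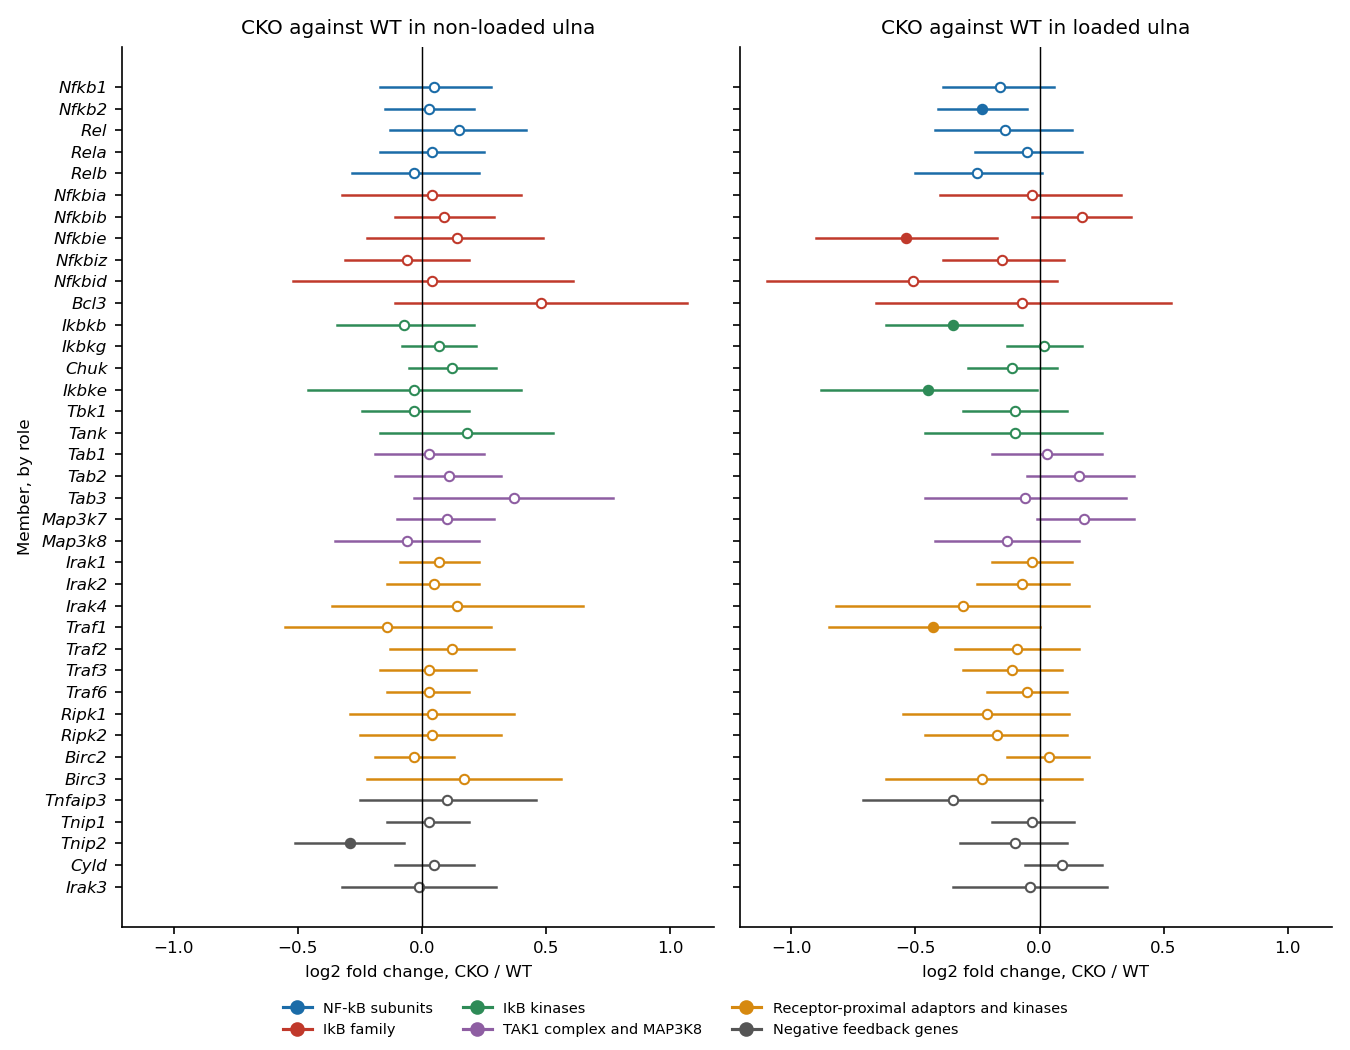
Log2 fold change of CKO over WT for each member in non-loaded (left) and loaded (right) ulnae, with 95% confidence intervals from edgeR, by role; filled points have an unadjusted p under 0.05. Tnip2 is filled on the left, and Nfkb2, Nfkbie, Ikbkb, Ikbke and Traf1 on the right, all below 0.

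In loaded bone the balance was the other way: 31 of 38 members lay below 0 in CKO and 7 above, with a median of -0.10. Again no member passed the threshold (lowest edgeR adjusted p = 0.601) and no gene did (0%). 5 members, 13.2% of them, had an unadjusted p under 0.05, all lower in CKO, against 6.81% of all genes: Nfkbie, Nfkb2, Ikbkb, Ikbke and Traf1. Over all genes 56.3% lay below 0, with a median of -0.04. The interval lay inside 2-fold for 37 members, all but Nfkbid, and inside 1.5-fold for 29.

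Nfkbie, the IkB epsilon gene, had the smallest p of the 38. It lay at 12.1, 8.69, 9.59 and 7.98 CPM in the loaded bones of CKO mice 688, 691, 693 and 698, and from 10.1 to 17.3 (median 13.8) in WT. 3 of the 4 CKO values were below every WT value and that of mouse 688 was inside the WT range. The lowest WT value, 10.1, was that of mouse 686. The loaded libraries of 686 and 688 are those that stood apart in Ltbp2, and an exchange between them was not tested. The level was 0.69-fold that of WT (log2 fold change -0.54 ± 0.18, 95% interval -0.90 to -0.17; edgeR adjusted p = 0.601). The unadjusted p stayed under 0.05 in all 18 alternative fits, with -0.71 to -0.36, and the adjusted p was never under 0.303.

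Nfkb2, whose product is cut into the subunit of the non-canonical arm, was the only member whose genotypes did not overlap in loaded bone; 1.23% of all genes did the same. It lay at 23.2, 23.5, 23.1 and 23.9 CPM in the CKO mice and from 24.0 to 30.1 (median 27.2) in WT. The separation was narrow, 23.9 against 24.0 CPM at the boundary, and the log2 fold change was -0.23 ± 0.09 (95% interval -0.41 to -0.05). Mouse 688 lay inside the WT range for Nfkbie, Ikbkb and Ikbke, so their genotypes overlapped. Its loaded library stood apart in Ltbp2. Without this mouse 14.8% of all genes had an unadjusted p under 0.05 in loaded bone, against 6.81% with it. The share of all genes separated without it was not computed. In non-loaded bone no member was separated, against 0.186% of all genes. The upstream windows of both Nfkb2 and Nfkbie hold decamer matches, printed above, but 10 of the 12 members with a match and 15 of the 19 without one lay below 0, with medians of -0.10 and -0.07.

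Ikbkb and Ikbke encode kinases, the first the main kinase of the canonical pathway and the second a relative better known for interferon responses. Ikbkb lay at 58.8, 46.7, 46.6 and 37.7 CPM in CKO and from 55.0 to 64.4 (median 60.9) in WT (-0.35 ± 0.13, 95% interval -0.62 to -0.07). Ikbke lay at 16.5, 12.2, 9.93 and 9.20 CPM against 13.6 to 20.1 (median 16.3; -0.45 ± 0.21, -0.88 to -0.01). In both, mouse 688 lay inside the WT range and the other 3 CKO mice below it. Traf1, an adaptor of TNF receptors, lay at 5.72, 4.39, 3.76 and 3.29 CPM against 4.04 to 8.65 (median 5.39, log2 fold change -0.43 ± 0.20), with mouse 688 highest once more. Of 18 alternative fits, the unadjusted p was under 0.05 in 17 for Nfkb2, 16 for Ikbkb and 7 each for Ikbke and Traf1. The fits reuse the same libraries.

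The other core genes overlapped WT in loaded bone. Nfkb1 lay at 75.9, 72.6, 71.2 and 67.5 CPM in CKO and from 71.5 to 89.5 (median 80.0) in WT (-0.16 ± 0.11). Rela lay at 35.2, 35.6, 36.1 and 32.9 CPM against 29.2 to 41.7 (median 37.2; -0.05 ± 0.10), and Nfkbia at 58.0, 70.8, 81.6 and 39.4 against 52.1 to 77.0 (median 63.0; -0.03 ± 0.18). The 4 Rela values lay inside the WT range and below its median, while those of Nfkbia reached past the WT range on both sides. Tnfaip3 lay at 17.7, 16.6, 17.8 and 10.8 CPM against 15.9 to 23.8 (median 20.4; -0.35 ± 0.17), with only mouse 698 below the WT range.

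All 5 subunits lay below 0 in loaded CKO bone (median -0.16), as did 5 of 6 IkB genes (-0.11), 5 of 6 IkB kinases and partners (-0.11), 10 of 11 adaptors (-0.11) and 4 of 5 feedback genes (-0.04). In the TAK1 group 2 of 5 lay below 0 (median 0.03), and Map3k7 (0.18 ± 0.09) and Tab2 (0.16 ± 0.10) were among the members above 0.

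Markers of other tissues moved with this comparison. In loaded bone all 14 muscle markers lay above 0 in CKO (median 0.66), and all 10 macrophage (-0.35), 10 neutrophil (-0.38), 10 red cell (-0.30), 9 B cell (-0.37), 10 T and NK cell (-0.45) and 8 osteoclast markers (-0.55) lay below 0, 0 of any list past the threshold. The macrophage sum ran from 770 to 1780 CPM in CKO loaded and from 1280 to 2570 in WT loaded libraries, and the muscle sum from 110000 to 173000 and from 46200 to 149000 CPM. With muscle and marrow marker scores as covariates 18 of 38 members lay above 0 in place of 7. Nfkbie alone, 2.63% of the members, had an unadjusted p under 0.05 (-0.36, edgeR adjusted p = 0.972), against 3.53% of all genes. The 9 mitochondrial transcripts all lay above 0 in CKO (median 0.65), as the muscle markers did. 1 had an unadjusted p under 0.05, against 6.81% of all genes, and 0 passed the threshold. Their sums were 32600 to 69400 CPM in CKO loaded and 21600 to 43400 in WT loaded libraries. They were listed as a sign of RNA quality, which was not measured directly. Their part in the members' values was not tested. In bulk bone, fewer cells of a type and less RNA per cell cannot be told apart. Without mice 686 and 688, 8 members (21.1%) had an unadjusted p under 0.05, against 16.2% of all genes, with Nfkbie at -0.71 (edgeR adjusted p = 0.303). Leaving out mouse 688 alone gave 9, against 14.8% of all genes, and leaving out mouse 685, 692, 693 or 698 gave 3 each (7.89%), against 5.62%, 7.02%, 5.27% and 1.61% of all genes.

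**Figure D3:**
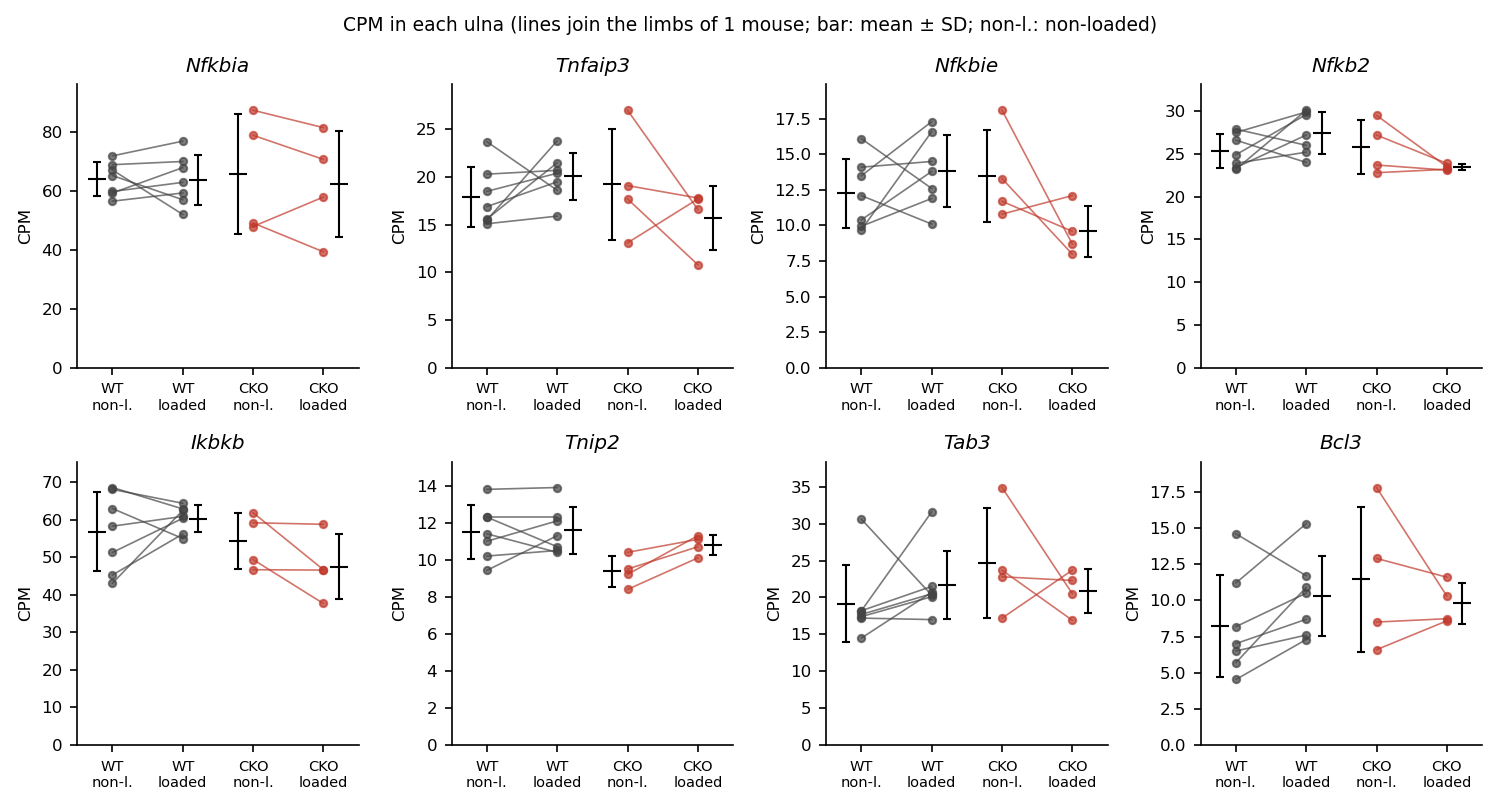
CPM of 8 members in each ulna, with lines joining the limbs of 1 mouse (grey WT, red CKO) and the mean ± SD of each group beside the points (n = 7 and 4). In the panels of Nfkbie and Nfkb2 the loaded CKO bones lie low, and in that of Nfkbia the 4 CKO mice spread more widely than WT in both limbs.

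Loading itself was first read in WT bone. No member passed the threshold (0 of 38; edgeR adjusted p = 1 for each), against 0.00532% of all genes, which is 1 gene, and no member had an unadjusted p under 0.05, against 2.34% of all genes. Without mice 686 and 688, without 688 or without 699 there was 1, against 2.91%, 2.61% and 7.22% of all genes. 29 members lay above 0, with a median of 0.06, where 47.7% of all genes did. All 38 intervals lay inside 2-fold and 36 inside 1.5-fold, so a response of 2-fold or more in either direction lay outside the 95% interval of every member.

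The members with the smallest p were Birc2, Nfkb2 and Bcl3. Birc2, a ubiquitin ligase at the TNF receptor complex, lay from 38.3 to 42.7 CPM (median 40.8) in non-loaded and from 34.7 to 39.4 (median 38.3) in loaded WT bone, lower in the loaded limb of 6 of 7 mice (-0.11 ± 0.07, 95% interval -0.25 to 0.03). Nfkb2 lay from 23.2 to 27.9 (median 24.9) against 24.0 to 30.1, with the loaded bone above in 5 of 7 (0.11 ± 0.07). Bcl3 lay from 4.53 to 14.6 against 7.29 to 15.3 (median 10.5), with the loaded bone above in 6 of 7 (0.32 ± 0.25). In all 3 genes the limbs overlapped. The inhibitor genes Nfkbia (-0.01 ± 0.15) and Tnfaip3 (0.16 ± 0.15) and the subunit genes Nfkb1 (0.06 ± 0.09) and Rela (0.08 ± 0.09) were within about 1 SE of 0. Osteoclast (8 of 8, median -0.38), osteoblast (9 of 9, -0.23), osteocyte (5 of 7, -0.32) and muscle markers (12 of 14, -0.12) lay below 0. Red cell (10 of 10, 0.28), B cell (8 of 9, 0.11) and macrophage markers (7 of 10, 0.01) lay above.

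In CKO bone 31 members lay below 0 on loading and 7 above (median -0.10), where 51.7% of all genes lay below. No member passed (lowest edgeR adjusted p = 0.739), against 0.016% of all genes, and 1, Nfkbie, had an unadjusted p under 0.05, against 3.6%. The count was 3 without mouse 688 and also without 686 and 688, against 13.1% and 12.5% of all genes, and 0 without 691 or 698, against 1.22% and 1.84%. Nfkbie lay at 10.8, 18.1, 11.7 and 13.3 CPM in the non-loaded and 12.1, 8.69, 9.59 and 7.98 in the loaded bones of mice 688, 691, 693 and 698. It was lower in the loaded limb of 3 of 4 mice, most in 691 (-1.05 in log2 CPM) and 698 (-0.73), and higher in 688 (0.15). The log2 fold change was -0.50 ± 0.20 (95% interval -0.90 to -0.09), -0.27 without mouse 691, -0.71 without mice 686 and 688, and -0.23 with muscle and marrow covariates, where the unadjusted p was over 0.05.

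Chuk, the second catalytic IkB kinase, and Tnip2 had the next smallest p. Chuk lay at 34.8, 36.1, 32.3 and 30.2 CPM in non-loaded and 34.0, 28.0, 26.4 and 30.2 in loaded CKO bone (-0.17 ± 0.10, 95% interval -0.37 to 0.03). Its low loaded values came from mice 691 and 693, and the limbs of 698 were alike. Tnip2 went from 9.50, 10.4, 8.40 and 9.21 to 10.7, 11.1, 10.1 and 11.3 CPM, above the non-loaded limb in 4 of 4 (0.20 ± 0.12, -0.04 to 0.45). Among the core genes, Tnfaip3 differed between the limbs by 0.43, -0.7, -0.11 and -0.71 in log2 CPM, with the mice in the same order. Nfkb1 differed by 0.1, -0.5, -0.03 and -0.14, Rela by 0.17, -0.24, 0.02 and 0.05, and Nfkbia by 0.27, -0.16, -0.1 and -0.32. All 11 adaptors and all 6 IkB kinases and partners lay below 0, with medians of -0.11 and -0.18. With the covariates 20 of 38 members lay above 0 in place of 7, and 15 did without mouse 691. Muscle markers were all above 0 in this contrast (14 of 14, median 0.55) and macrophage markers all below (10 of 10, median -0.47), and the 9 mitochondrial transcripts all lay above (median 0.39). Also all below 0 were osteoclast (8 of 8, -0.69), T and NK cell (-0.63), neutrophil (-0.57), B cell (-0.57) and red cell markers (-0.47). 4 osteoclast, 2 macrophage, 2 T and NK cell and 1 B cell markers had an unadjusted p under 0.05, against 3.6% of all genes. 6 of 9 osteoblast (0.04) and 6 of 7 osteocyte markers (0.38) lay above 0.

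**Figure D4:**
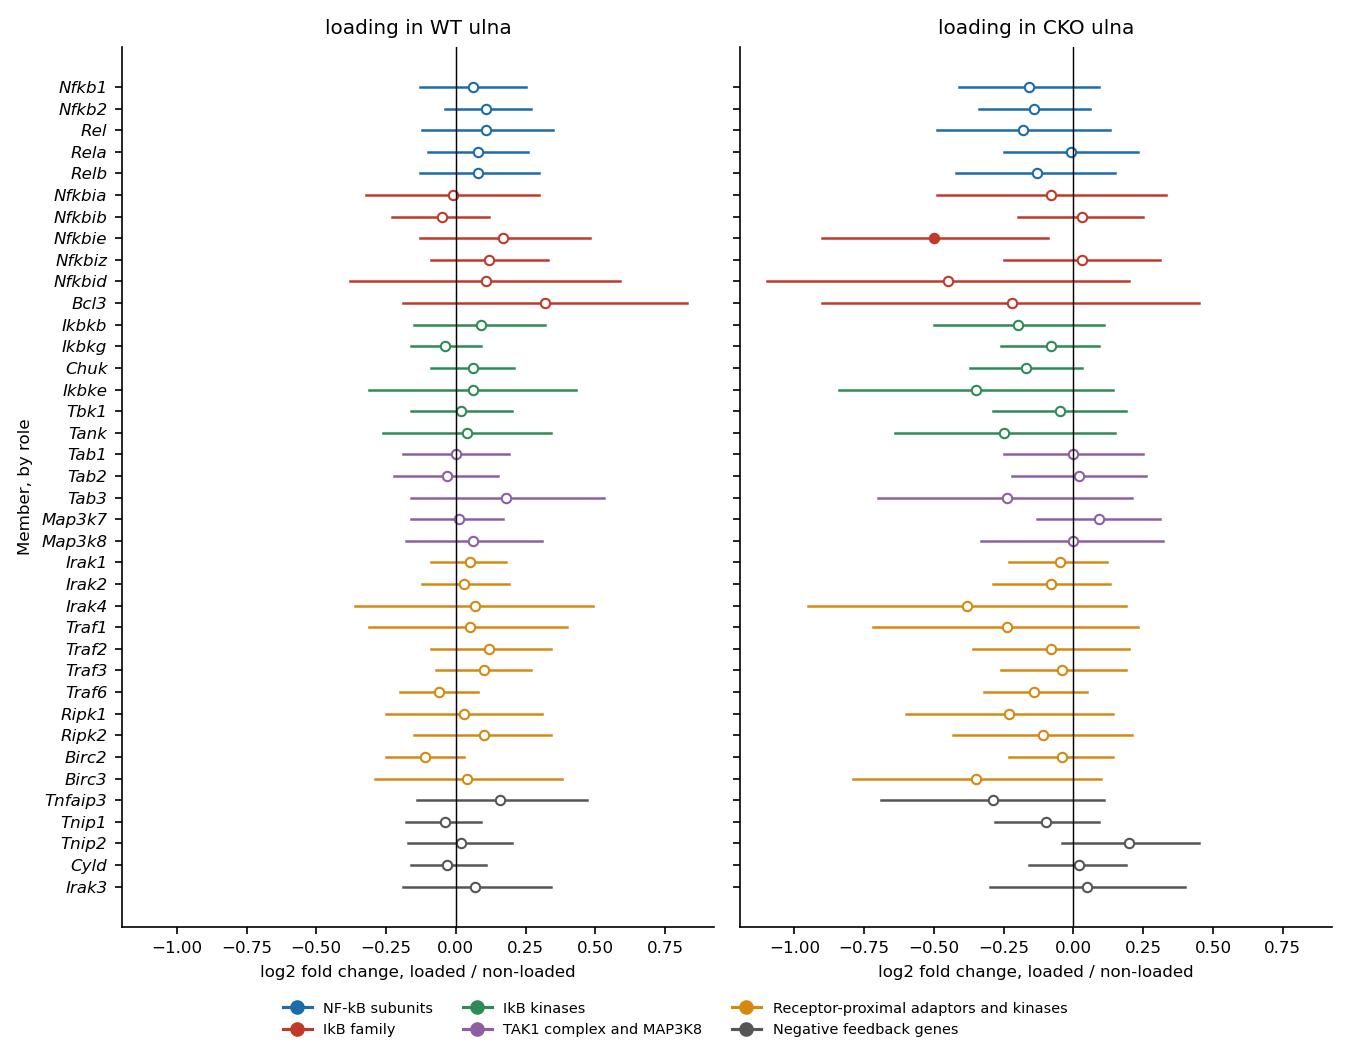
Log2 fold change of loaded over non-loaded ulna for each member in WT (left) and CKO (right), with 95% confidence intervals from edgeR, by role; filled points have an unadjusted p under 0.05. Most points lie above 0 on the left and below 0 on the right, and Nfkbie on the right is the one filled point.

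The interaction term asked if CKO bone responded to load unlike WT bone. No member passed (lowest edgeR adjusted p = 0.697) and no gene did (0%). 1 member, Nfkbie, had an unadjusted p under 0.05, against 2.6% of all genes: its response was lower in CKO by 0.67 ± 0.25 on the log2 scale (95% interval -1.18 to -0.16). The count was 8 (21.1%) without WT mouse 699, against 14.5% of all genes, 3 without 688, against 11.4%, 2 without 687, against 2.43%, and 0 without 691, against 0.947%. Without mice 686 and 688 it was 3, against 11.7%, and Nfkbie gave -0.93. Nfkb2 (-0.25 ± 0.12) and Chuk (-0.23 ± 0.12) came next. 32 members lay below 0, with a median of -0.17, where 49.8% of all genes did. For 32 members the interval lay inside 2-fold, and the exceptions include Nfkbie, Nfkbid and Bcl3. With muscle and marrow covariates 13 members lay above 0 in place of 6, and Nfkbie gave -0.37; without mouse 691 it gave -0.44, with an unadjusted p over 0.05.

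Over both genotypes together, each with the same weight, no member passed (lowest edgeR adjusted p = 0.999), against 0.0905% of all genes, and none had an unadjusted p under 0.05, against 3.17%. Without mouse 688, and without 686 and 688, 2 did, against 5.69% and 4.85%. All 38 intervals lay inside 1.5-fold, the narrowest bound of any contrast here. Traf6, the ubiquitin ligase that links IRAK kinases to TAK1, had the smallest p (-0.10 ± 0.06, 95% interval -0.22 to 0.02). It lay from 36.1 to 42.5 CPM (median 40.4) in non-loaded and from 33.2 to 41.0 (median 38.3) in loaded WT bone, and went from 34.3, 44.8, 40.9 and 41.0 to 36.8, 36.3, 36.3 and 37.0 in CKO, where the 4 loaded bones lay closer together than the non-loaded ones. 0 members were higher in the loaded limb of at least 9 of 11 mice, against 2.88% of all genes, and 2, Ikbkg and Birc2, were lower in 9 of 11, against 2.95%.

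The difference between the limbs varied from mouse to mouse in both genotypes. In WT mice 692 and 694, 34 and 33 of the 38 members were higher in the loaded limb, with median differences of 0.22 and 0.30 in log2 CPM. WT mouse 699 went the other way, with 7 of 38 higher and a median of -0.19. The remaining WT mice 685, 686, 687 and 690 had 15, 20, 19 and 25 members higher, with medians of -0.06, 0.02, 0.00 and 0.08. Among CKO mice, 688 had 26 higher (median 0.11), while 691, 693 and 698 had 3, 8 and 14 (medians -0.31, -0.07 and -0.10). WT mice thus lay on both sides of 0, and CKO mice did too.

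The marker scores moved with these shifts. The members' median went the opposite way to the skeletal muscle score in 9 of 11 mice, the same way as the marrow score (red cell, neutrophil and B cell genes) in 9 of 11, and the same way as the macrophage markers in 9 of 11. In mouse 691 the loaded bone had a muscle score 2.69 higher and a marrow score 1.30 lower (mean log2 CPM of the markers) than the non-loaded bone, and in mouse 694 the muscle score was 1.30 lower and the marrow score 1.22 higher. Nfkbid showed the widest limb differences of any member, -1.24 in 691 and 1.17 in 694. How far tissue content sets the members' levels was not tested.

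**Figure D5:**
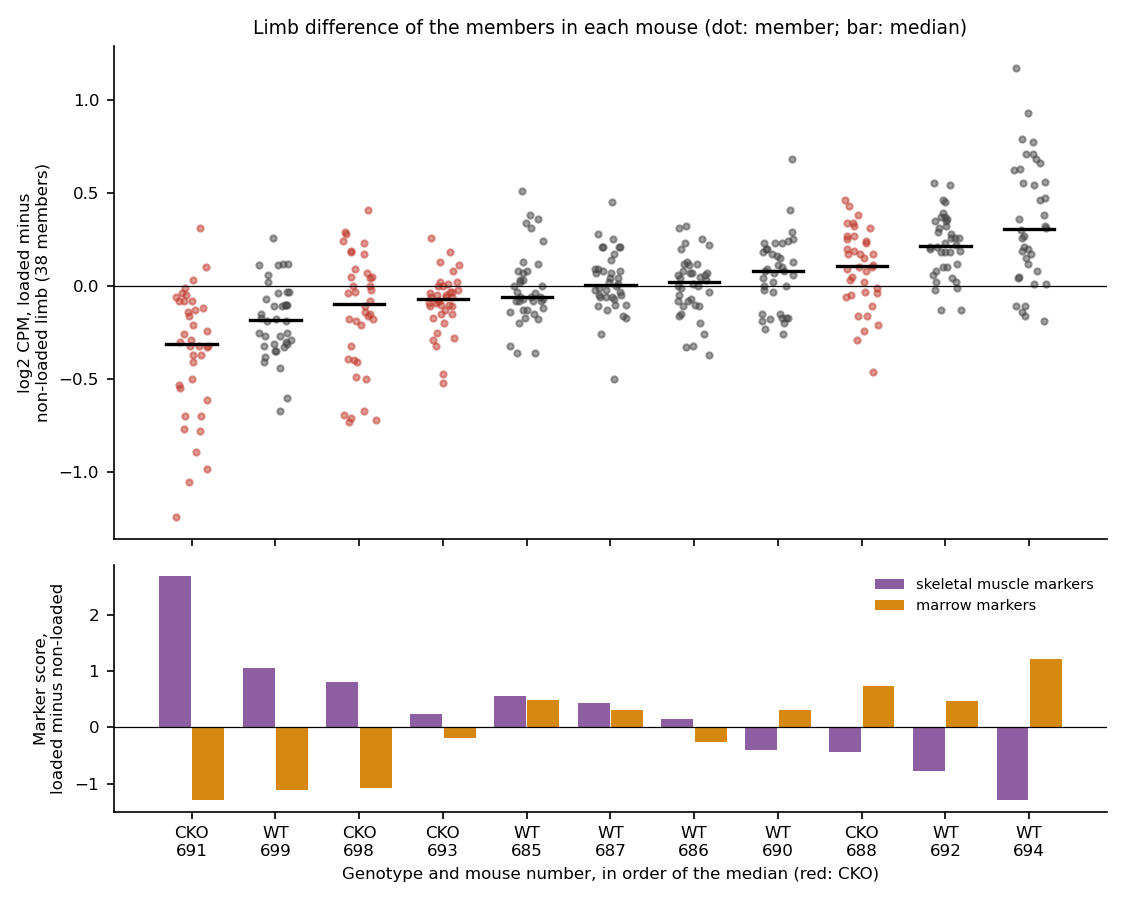
Top, difference in log2 CPM between the loaded and the non-loaded limb for the 38 members in each mouse, with the median as a bar; bottom, the same difference in the muscle and marrow marker scores. Mice are in order of the median, from 691 at -0.31 to 694 at 0.30, and the muscle bars run from positive to negative in nearly the same order.

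The pathway around the members was read from 4 lists. Above them stand 15 TLR receptors and adaptors, of which 0 passed the threshold in any contrast. On loading in CKO 14 of 15 lay below 0 (median -0.33), and for CKO against WT in loaded bone 13 of 15 (median -0.19). The other way went 12 of 15, above 0 for CKO against WT in non-loaded bone (median 0.11). On loading in WT 11 of 15 lay above 0 (median 0.03). The 12 genes of the TNF and IL-1 arm, which feeds into the same kinases, also had 0 calls. Against WT, 12 of 12 lay below 0 in CKO loaded bone (median -0.16) and 11 of 12 above 0 in CKO non-loaded bone (median 0.08). The 8 genes of the non-canonical arm had 0 calls. Tnfrsf12a, a TNF family receptor, had their smallest p on loading (1.11 ± 0.30 over both genotypes, edgeR adjusted p = 0.541). It lay above 0 in 10 of 11 mice, where 2.88% of all genes were higher in at least 9 of 11.

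Below the members stand 22 NF-kB target genes, of which 20 passed the count filter. Over both genotypes 1 of 20 was called, Ptgs2, the gene of the prostaglandin synthase COX-2, and 6 had an unadjusted p under 0.05, all higher in loaded bone. Over all genes 0.0905% were called and 3.17% had such a p. Ptgs2 lay from 0.204 to 0.668 CPM (median 0.468) in WT non-loaded and from 1.03 to 2.38 (median 1.08) in WT loaded bone, and went from 0.606, 0.800, 0.206 and 0.467 to 1.19, 1.39, 2.84 and 1.63 CPM in CKO mice 688, 691, 693 and 698. It rose in the loaded limb of 11 of 11 mice, where 2.88% of all genes were higher in at least 9 of 11. The limbs did not overlap in either genotype, and the share of all genes separated by limb was not computed. The change was 3.33-fold (log2 fold change 1.74 ± 0.27, 95% interval 1.17 to 2.30, edgeR adjusted p = 0.00531), with counts per library as low as 6. Alone in each genotype it missed the threshold (adjusted p = 0.143 and 0.494). The adjusted p over both was 0.0547 without mouse 693 and 0.125 with the mouse as a block. The responses of WT (1.73 ± 0.33) and CKO (1.74 ± 0.43) differed by 0.02 ± 0.60 (95% interval -1.22 to 1.26), an interval too wide to show that they are alike. Ccl2, a monocyte chemokine gene, lay above 0 in 11 of 11 mice and missed the threshold (1.34 ± 0.38, adjusted p = 0.593).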

How the data were processed

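Total RNA was extracted from milled ulnae and made into stranded libraries from 4 ng of RNA, per the labels' protocols. STAR, RSEM and GRCm38 are named in the submitters' processing notes; versions, annotation and counting strand: not given in the sources used here. Values deposited by the authors are treated as RSEM expected counts; all were whole already. Genes were matched by Ensembl identifier (25428 of 25471), with positions, overlaps and exon lengths taken from GENCODE M21, also GRCm38. Reads of Nfkbib, Ikbkg, Irak4, Ripk1 and Irak3 may be shared with an antisense neighbour.

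Groups came from the labels, and nothing says that mice were processed together or apart. edgeR 4.0.16 (R 4.3.3) was run over all 22 libraries with 1 mean per group (18 residual degrees of freedom): filterByExpr, TMM, robust glmQLFit and glmQLFTest, with Benjamini-Hochberg adjustment over 18793 genes and a threshold of 0.05. CPM are TMM-scaled, log2 CPM have a prior count of 2, and the standard error is the fold change over the square root of F. Contrasts share groups, so they are not independent: both loaded-bone contrasts of CKO use the same 4 libraries. The fits were checked on simulated data. Alternatives were other scalings, no filter, DESeq2 1.42.0, limma 3.58.1 voom with the mouse as a random effect, the mouse as a block, muscle and marrow scores as covariates, and leaving out each mouse or mice 686 and 688.

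Both limbs of a number come from 1 mouse, which pairs them; departures from the group mean correlated between limbs at -0.256 to 0.415 (median 0.189), over 0.1 in 7 of 11 mice. P-values of the main fit rest on the spread between libraries of a group and treat the limbs of a mouse as independent. The fits with the mouse as a block or as a random effect use the pairing. No 2 libraries of a group were alike (chi-square per gene of at least 26.3 over 54 pairs). Members and lists were chosen with earlier results of these data known. Values per library are given for the 3 members with the smallest p in each contrast and for Nfkb1, Rela, Nfkbia and Tnfaip3; Ikbke and Traf1 were added after their values were seen. The decamer search covers letters only.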

Additional observations from a re-analysis of the deposited data

Results flagged for a closer look

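Of 60 groups of values examined (15 members in 4 groups), 6 held a library that stood far from the rest by Dixon's gap criterion, where chance gives about 1 in 20, or 3. Nfkb1 was highest in non-loaded bone of WT mouse 699, at 99.4 CPM against 69.3 to 80.5 in the other 6, and of CKO mouse 691, at 102 CPM against 71.0 to 74.6. Tab3 was highest in the same WT bone, at 30.6 CPM against 14.5 to 18.2, and in the loaded bone of WT mouse 694, at 31.6 CPM against 17.0 to 21.5. Birc2 was highest in the loaded bone of CKO mouse 688, at 47.5 CPM against 34.8 to 36.6. Tnfaip3 was lowest in the loaded bone of CKO mouse 698, at 10.8 CPM against 16.6 to 17.8. Mice 699, 691 and 694 had limb differences of the muscle score of 1.06, 2.69 and -1.3; their part in these values was not tested.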

How the results depend on the processing

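No member was called in any of the 6 contrasts under any of up to 19 alternatives, DESeq2 and limma voom included. For the members named in each contrast, 44 results gave 820 values, 0 of them past the threshold. Among the values 36 had the opposite sign to the reported value, 34 of them for results reported as smaller than their SE, which were given no direction. The other 2, with muscle and marrow scores as covariates, reversed a value larger than its SE, both in loading in CKO: Nfkb1 to 0.03 and Tnfaip3 to 0.01; this setting uses markers that may themselves respond. The lowest adjusted p was 0.302, for Tab3 in non-loaded bone without mouse 699 (0.54). With the mouse as a replicate block, a paired fit with 9 residual degrees of freedom, Nfkbie gave -0.48 (adjusted p = 0.641) for loading in CKO and -0.66 (0.601) for the interaction; it called 0 members and ended the call of Ptgs2 (1.71, adjusted p = 0.125), and changed no other call given here. Genotype contrasts lie between mice and take no block. Ptgs2 without each mouse ran from 1.44 to 1.94. Over all genes, calls for loading were 1 in WT, 3 in CKO and 17 over both genotypes, against 11, 22 and 33 with DESeq2, 6, 1 and 21 with the covariates, 2, 5 and 11 with the block, and 1, 0 and 15 without mice 686 and 688. For genotype, DESeq2 called 2 genes in non-loaded and 0 in loaded bone. Without mice 686 and 688 edgeR called 1 gene in non-loaded and 1 in loaded bone, and without mouse 686 alone 1 in non-loaded bone. For loaded bone, the share of genes with an unadjusted p under 0.05 that were higher in CKO was 58.7%, and 75.9% with median-ratio scaling; the members stayed at 7 above 0. With 4 CKO mice, differences under about 1.5-fold are often inside the intervals.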
